A study of Mus musculus with 8 samples.

Results

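The Schlafen genes are a family of interferon-inducible genes that lie side by side on mouse chromosome 11, and 7 of them (Slfn1, Slfn2, Slfn3, Slfn4, Slfn5, Slfn8 and Slfn9) were followed here in endothelial cells (ECs) of breast tumours. They were taken as the 7 rows of that name among the 20408 genes of the expression tables, and were read in the 7159 of 8204 cells that held at least 1 UMI (a counted transcript molecule) of Pecam1, the gene of the endothelial surface protein CD31. The members were chosen as a gene family.

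The cells were FACS-sorted CD31+ tumour ECs from MMTV-PyMT breast tumours, profiled by droplet-based single-cell RNA sequencing with 3′ chemistry. In the MMTV-PyMT mouse a mammary tumour virus promoter drives the polyoma middle T oncogene in mammary epithelium, so that tumours arise spontaneously, whereas the implanted tumours came from cultured cells of such a tumour placed in Matrigel in the mammary fat pad of syngeneic females. Tumours of each model were injected with PBS or with cGAMP, the second messenger that switches on the sensor STING, and were taken 3 h later according to the methods. The 4 groups, named by model and injection (spontaneous PBS, implanted cGAMP and so on), had 2 libraries each, which the methods describe as 2 mice. The labels give the strain of every library as C57BL/6 and the age as adult, while FVB is the strain given for both models in the methods, and which of them is right was not settled. The comparison addresses how ECs of the 2 tumour models respond to STING activation.

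The libraries held 601 to 1529 cells with Pecam1 and 7451522 to 16338968 UMIs in those cells. The median depth was 3049 UMIs per cell in implanted cGAMP replicate 1, which held 580 cells under 2000 UMIs, and 9523 to 14708 in the other libraries. All 9 endothelial markers fixed for the check were found in every library and summed to 5684 to 6940 CPM, the UMIs of a gene divided by all UMIs of a cell and scaled up, which were averaged over the cells of a library. The 14 immune markers summed to 21.0 to 51.1 CPM in 6 libraries but to 315 and 95.9 CPM in implanted cGAMP replicates 1 and 2. Cells with a UMI of the leukocyte gene Ptprc made up 5.62% and 5.63% of the cells in those libraries, against 0.166% to 2.16% elsewhere. The 6 fibroblast markers summed to 17.9 and 99.9 CPM in spontaneous PBS, 150 and 135 CPM in spontaneous cGAMP, 25.4 and 15.0 CPM in implanted PBS and 103 and 66.3 CPM in implanted cGAMP. The 8 mural markers summed to 219 and 598 CPM in spontaneous PBS, 903 and 670 CPM in spontaneous cGAMP and 180 to 389 CPM in implanted libraries. The 8 epithelial tumour markers summed to 1122 CPM in implanted cGAMP replicate 1 and to 159 to 719 CPM elsewhere.

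Schlafen proteins were named after the German word for sleep, because the first members were described as arresting the growth of thymocytes. They are usually sorted by length into a short group (Slfn1 and Slfn2), an intermediate group (Slfn3 and Slfn4) and a long group with a helicase-like region (Slfn5, Slfn8 and Slfn9). Interferon raises most of them, and STING raises type I interferon through Tbk1 and Irf3.

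In the GRCm38 annotation the 7 genes span 263.8 kb, from 82951349 to 83215154 on chromosome 11, with 5 genes on the plus strand and 2 (Slfn8 and Slfn9) on the minus strand. The order along the chromosome is Slfn5, Slfn9, Slfn8, Slfn2, Slfn1, Slfn4 and Slfn3, each annotated as protein coding. RefSeq starts were matched for 7 of 7 genes, with 8 promoters in all since Slfn8 has 2 starts. The promoter windows of 300 bases, from 250 before the start to 50 after it, were searched on both strands for the interferon-stimulated response element (ISRE) written as TTTC, 2 bases of any kind and TTTC. These letters were in the windows of 3 genes, Slfn5, Slfn9 and Slfn8, and in 3.44% of all 32851 RefSeq promoters of that length. The gamma-activated site written as TTCNNNGAA was in 0 of the 7 genes' windows, against 8.30% of all promoters.

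The 250 bases before the start are shown for the 3 genes with a match, with the ISRE letters in capitals, and for Slfn2 and Slfn4, which held no match and rose strongly after cGAMP. All are written 5′ to 3′ on the strand of the gene (GRCm38.p6). The windows are chr11:82951852-82952101 (plus strand) for Slfn5, chr11:82991831-82992080 (minus) for Slfn9, chr11:83020811-83021060 (minus) for the first start of Slfn8, chr11:83064862-83065111 (plus) for Slfn2 and chr11:83174936-83175185 (plus) for Slfn4.
Slfn5: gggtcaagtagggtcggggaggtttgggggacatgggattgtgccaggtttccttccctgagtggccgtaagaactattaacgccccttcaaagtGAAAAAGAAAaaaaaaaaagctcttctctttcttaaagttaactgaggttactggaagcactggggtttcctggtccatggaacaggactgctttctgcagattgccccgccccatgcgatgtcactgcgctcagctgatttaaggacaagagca
Slfn9: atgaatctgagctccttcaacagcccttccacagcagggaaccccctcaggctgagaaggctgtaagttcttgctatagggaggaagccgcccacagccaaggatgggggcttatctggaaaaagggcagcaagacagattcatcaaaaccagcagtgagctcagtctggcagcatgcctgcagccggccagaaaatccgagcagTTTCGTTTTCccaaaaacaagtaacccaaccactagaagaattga
Slfn8: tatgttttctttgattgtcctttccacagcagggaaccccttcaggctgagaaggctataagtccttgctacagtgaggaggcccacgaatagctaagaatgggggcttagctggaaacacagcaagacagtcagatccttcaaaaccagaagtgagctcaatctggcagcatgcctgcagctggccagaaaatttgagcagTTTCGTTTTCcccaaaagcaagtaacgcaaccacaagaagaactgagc
Slfn2: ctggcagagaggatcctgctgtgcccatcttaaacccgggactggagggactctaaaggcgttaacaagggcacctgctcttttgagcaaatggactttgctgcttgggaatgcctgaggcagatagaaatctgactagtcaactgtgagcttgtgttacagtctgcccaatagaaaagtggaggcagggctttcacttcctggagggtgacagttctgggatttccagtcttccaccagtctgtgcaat
Slfn4: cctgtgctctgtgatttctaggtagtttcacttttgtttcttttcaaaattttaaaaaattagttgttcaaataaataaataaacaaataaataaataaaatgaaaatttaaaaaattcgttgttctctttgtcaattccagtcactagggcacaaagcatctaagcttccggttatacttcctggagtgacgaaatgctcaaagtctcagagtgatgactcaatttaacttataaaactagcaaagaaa
The match began at base -155 from the start in Slfn5, at -45 in Slfn9 and at -48 in Slfn8, or at -136 when counted from the second start of Slfn8. Slfn8 and Slfn9 carried the identical letters TTTCGTTTTC, and their windows were 86.5% identical over 289 aligned bases. A match is a description of the letters and does not show that a factor binds there, and no match says only that these letters are not in the window.

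Slfn8 and Slfn9 also resemble each other at the transcript end that 3′ chemistry reads. Of all stretches of 50 bases in the last 1000 bases of their transcripts, 15.6% of those of Slfn8 and 14.7% of those of Slfn9 were shared with another family member, most often with each other. For Slfn1, Slfn2, Slfn3, Slfn4 and Slfn5 the share was 0 to 1.95%. Reads of Slfn8 and Slfn9 could therefore be split or lost between the paralogues, and their levels are less certain than those of the other members.

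After PBS, Slfn5 was by far the most abundant member in both models. UMIs of 3′ chemistry count molecules and do not grow with transcript length, and on that basis levels of different genes are set side by side. The places of Slfn8 and Slfn9 are less certain, for the reason given above. Other differences between genes in how well their transcripts are counted were not tested. In spontaneous PBS the order of the mean levels was Slfn5 (515 CPM), Slfn2 (28.4), Slfn9 (9.52), Slfn3 (4.83), Slfn4 (2.04), Slfn8 (1.07) and Slfn1 (0.0735), and among neighbours in this order the libraries of Slfn4 and Slfn8 overlapped. In implanted PBS the order was Slfn5 (497 CPM), Slfn2 (101), Slfn9 (21.7), Slfn4 (8.65), Slfn3 (6.40), Slfn8 (3.51) and Slfn1 (0.0142), with Slfn4 and Slfn3 overlapping. After cGAMP the neighbours did not overlap in either model, and Slfn4 had moved up to the third place.

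**Figure D1:**
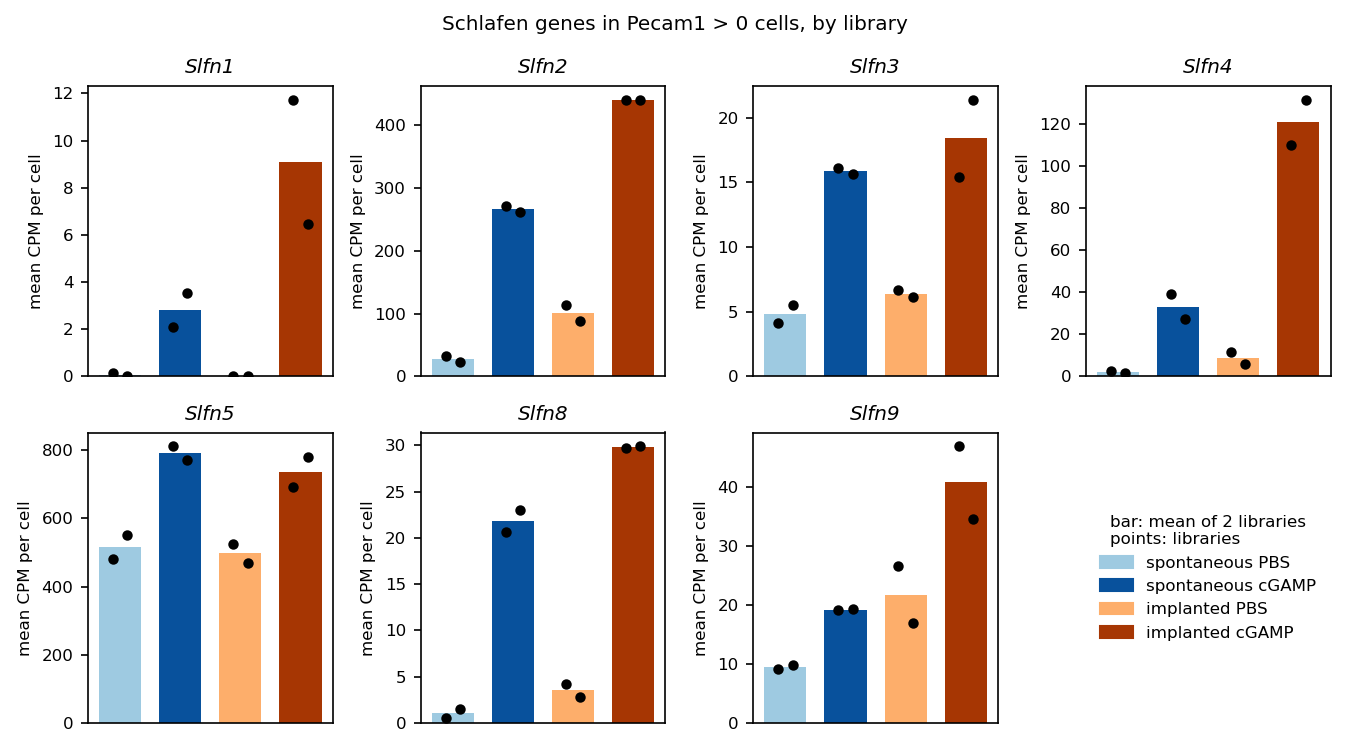
Mean CPM per Pecam1 > 0 cell of each Schlafen gene (y axis, linear, starting at 0) in the 4 groups; bars are means of 2 libraries and points the libraries. For all 7 genes both cGAMP libraries lie above both PBS libraries of the same model, from 0.0284 CPM at most for Slfn1 in implanted PBS to 812 CPM at most for Slfn5 in spontaneous cGAMP. The share of all genes with this separation is not given.

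Within 3 h of cGAMP all 7 members rose in both models. In the fit over 10424 genes (limma on log2(CPM + 1), Benjamini-Hochberg adjusted p under 0.05), 12.7% of all genes were called in the spontaneous response and 25.0% in the implanted response, with 5.09% and 8.60% called as higher. The median log2 difference was 1.81 over the members and -0.10 over all genes tested in spontaneous tumours, and 2.12 and -0.10 in implanted tumours. Of the genes called, 40.2% were higher in spontaneous and 34.3% in implanted tumours, and with median-of-ratios scaling these shares were 66.4% and 51.5%, while 7 of 7 members stayed called as higher in both models. All 7 were also called in both models without the clusters named mural or epithelial. That setting kept an unnamed cluster of 1233 cells, led by Spp1 and the epithelial markers Wfdc18 and Csn3. It made up 12.2% of implanted PBS cells and 29.4% of implanted cGAMP cells. Without this cluster Slfn2, Slfn3, Slfn4, Slfn5 and Slfn8 stayed called in both models.

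Slfn2, a short member that keeps T cells quiescent, had the clearest change. It stood at 33.0 and 23.7 CPM in the 2 spontaneous PBS libraries and at 270 and 262 CPM after cGAMP. In implanted tumours it stood at 114 and 88.2 CPM after PBS and at 439 and 438 CPM after cGAMP. The groups did not overlap, and the log2 differences were 3.20 ± 0.15 (SE, limma adjusted p 1.27e-06) and 2.12 ± 0.15 (adjusted p 2.75e-05).

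Slfn1, the other short member and the founder of the family, was barely detected after PBS. Its UMIs numbered 2 and 0 in the spontaneous PBS libraries and 33 and 34 after cGAMP, and 1 and 0 in the implanted PBS libraries and 94 and 98 after cGAMP. Relative to all UMIs this was a ratio of 28.4 (95% interval 7.57 to 240, counting error only) for the spontaneous model and of 245 (43.4 to 9718) for the implanted model. On the log2(CPM + 1) scale the differences were 1.81 ± 0.49 (limma adjusted p 0.0415) and 3.27 ± 0.49 (adjusted p 0.00144).

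In 1 cGAMP library of each model a large part of the Slfn1 UMIs lay in few Ptprc-positive cells. In spontaneous cGAMP replicate 2, 15 Ptprc-positive cells held 16 of its 34 UMIs, and in implanted cGAMP replicate 2, 34 such cells held 47 of 98. In the other cGAMP library of each model they held 1 of 33 and 15 of 94 UMIs. Without Ptprc-positive cells its level after cGAMP was 2.05 and 2.69 CPM in the spontaneous model and 11.9 and 3.37 CPM in the implanted one, against 0 to 0.0883 CPM after PBS, and it no longer passed the filter of 5 CPM in 2 libraries. For the other 6 members these cells held 1.52% to 12.9% of the UMIs in each cGAMP library, and all 6 stayed called in both models without them.

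Slfn4, an intermediate member known from macrophages and other myeloid cells, rose in both models. It stood at 2.54 and 1.54 CPM in spontaneous PBS and at 39.3 and 27.1 CPM in spontaneous cGAMP. In implanted tumours its levels were 11.4 and 5.91 CPM after PBS and 110 and 131 CPM after cGAMP. The log2 differences were 3.49 ± 0.29 (limma adjusted p 4.02e-05) and 3.71 ± 0.29 (adjusted p 3.80e-05).

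Slfn3, the other intermediate member, changed less. Its libraries ranged from 4.11 to 5.54 CPM after PBS and from 15.7 to 16.1 CPM after cGAMP in spontaneous tumours, and from 6.13 to 6.67 and from 15.5 to 21.4 CPM in implanted tumours. The log2 differences were 1.55 ± 0.21 (limma adjusted p 0.00130) and 1.38 ± 0.21 (adjusted p 0.00152).

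Slfn5, a long member studied as an interferon-induced regulator of cell growth, started from the highest level of the family in both models. It stood at 480 and 551 CPM in spontaneous PBS and at 812 and 772 CPM in spontaneous cGAMP. In implanted tumours it stood at 525 and 470 CPM after PBS and at 691 and 779 CPM after cGAMP. The log2 differences were 0.62 ± 0.09 (limma adjusted p 0.00292) and 0.56 ± 0.09 (adjusted p 0.00269). Its antisense neighbour Slfn5os, which overlaps it on the other strand, held 0 to 18 UMIs per library and was too low to test.

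Slfn8, a long member, rose from 0.578 and 1.56 CPM to 20.7 and 23.0 CPM in spontaneous tumours and from 4.25 and 2.78 CPM to 29.7 and 29.9 CPM in implanted tumours. The log2 differences were 3.50 ± 0.27 (limma adjusted p 2.52e-05) in the first and 2.79 ± 0.27 (adjusted p 0.000115) in the second. Slfn9, its neighbour and closest relative, differed by 0.94 ± 0.21 (adjusted p 0.0196) and 0.90 ± 0.21 (adjusted p 0.0126). Its libraries stood at 9.21 and 9.82 CPM in spontaneous PBS and 19.1 and 19.3 CPM in spontaneous cGAMP, and at 26.5, 16.9, 46.9 and 34.6 CPM in the implanted groups, PBS first.

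**Figure D2:**
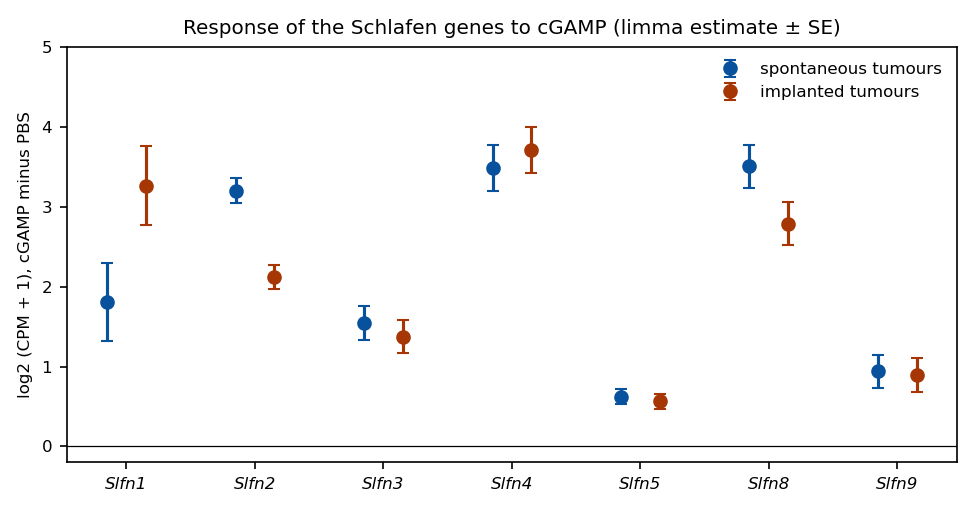
Difference of log2(CPM + 1) between cGAMP and PBS (y axis) for each Schlafen gene, with points for the limma estimate and bars for its standard error, in spontaneous and implanted tumours. Every estimate lies above 0, from 0.56 for Slfn5 to 3.71 for Slfn4.

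The calls of Slfn9 in both models and of Slfn1 in spontaneous tumours depended on single libraries. In spontaneous tumours both calls also depended on the processing. In implanted tumours the Slfn1 call was lost in 0 of the 17 alternatives in which it was tested. Over all alternatives, single libraries left out among them, the spontaneous call was lost in 10 of 17 for Slfn1 and in 6 of 20 for Slfn9. The lowest log2 differences were 0.35 and 0.43. Slfn1 was not called in spontaneous tumours when any 1 of 6 libraries was left out (adjusted p 0.0611 to 0.231) and was not tested without either implanted cGAMP library. Slfn9 was not called in spontaneous tumours without any 1 of the 4 spontaneous libraries (adjusted p 0.0694 to 0.108), nor in implanted tumours without implanted PBS replicate 2 (0.101) or implanted cGAMP replicate 1 (0.0632).

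The rise changed the makeup of the family. In spontaneous tumours Slfn5 gave 90.6% and 92.9% of the summed Schlafen level after PBS and 68.8% in both libraries after cGAMP. In implanted tumours its share was 76.3% and 79.7% after PBS and 51.4% and 54.1% after cGAMP. Slfn2 went from 6.24% and 3.99% to 22.9% and 23.3% in spontaneous tumours and from 16.6% and 15.0% to 32.7% and 30.4% in implanted tumours. The summed level went from 529 and 593 CPM to 1179 and 1122 CPM in spontaneous tumours and from 687 and 590.1 CPM to 1344 and 1441 CPM in implanted tumours.

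**Figure D3:**
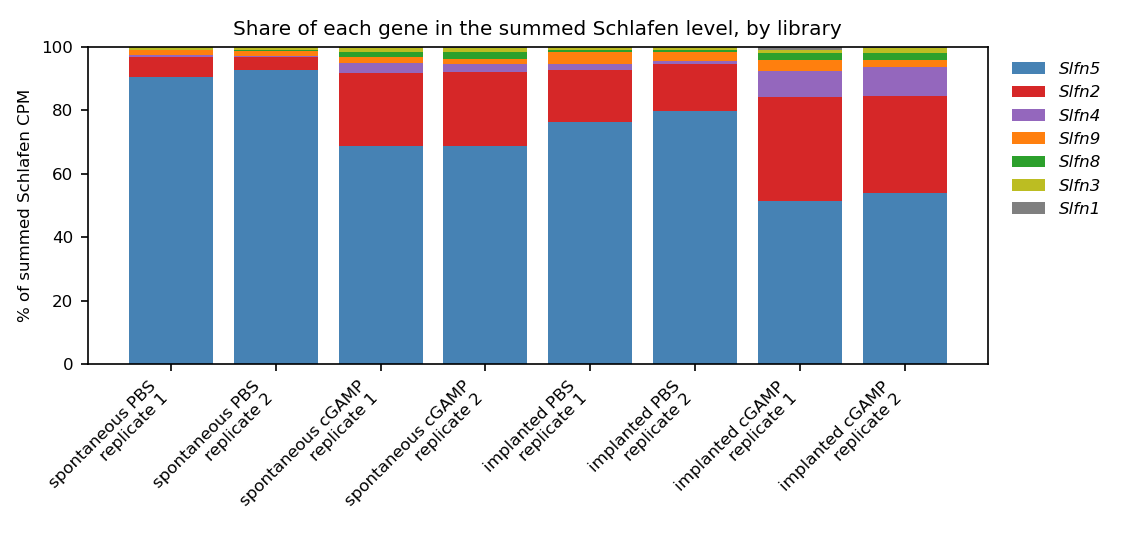
Share of each Schlafen gene in the summed Schlafen CPM (y axis, percent) in each of the 8 libraries. Slfn5 fills 90.6% to 92.9% of the bars of spontaneous PBS and 51.4% to 54.1% of those of implanted cGAMP, where Slfn2 fills 30.4% to 32.7%.

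The same could be seen cell by cell. With every cell thinned to 2000 UMIs and shallower cells left out (22 to 102 per library, and 580 in implanted cGAMP replicate 1), the mean number of members with a UMI per cell went from 0.664 and 0.628 to 1.24 and 1.21 in spontaneous tumours and from 0.822 and 0.727 to 1.46 and 1.53 in implanted tumours. Cells with UMIs of 2 or more members made up 5.21% and 5.23% in spontaneous PBS and 35.3% and 32.0% in spontaneous cGAMP, and 14.4% and 10.1% in implanted PBS and 45.5% and 48.1% in implanted cGAMP. Slfn2 was found in 6.60% and 4.69% of spontaneous PBS cells and in 35.2% and 33.7% of spontaneous cGAMP cells, and in 15.8%, 12.2%, 53.8% and 51.7% of implanted cells, PBS first. Without thinning these shares were 15.4%, 13.1%, 71.3% and 69.6% in spontaneous and 40.5%, 30.6%, 65.1% and 80.5% in implanted tumours. No cell type in these libraries is known to lack Slfn2, so that no background share stands beside these values, and the part of free RNA in them was not tested.

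Whether the members responded differently in the 2 models was tested as the difference of the responses. It was called for 0 of 7 members (0.662% of all genes, limma). An unadjusted p under 0.05 was found for 1400 of the 10424 genes and, among the members, for 1, Slfn2. Its response was smaller in implanted tumours by a log2 difference of -1.08 ± 0.22 (unadjusted p 0.000639, adjusted p 0.0692). It passed with an adjusted p of 0.0396 without the clusters named mural or epithelial and of 0.0400 without implanted PBS replicate 2, and the adjusted p ranged from 0.0394 to 0.308 over all alternatives. The differences of the other 6 members lay between -0.71 and 1.46 on the log2 scale, with adjusted p of 0.402 or more.

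Levels differed between the models already after PBS. In implanted PBS 4 of the 7 members were called higher than in spontaneous PBS, against 3.39% of all genes. These were Slfn2 by 1.80 ± 0.15 (limma adjusted p 0.000244), Slfn4 by 1.63 ± 0.29 (0.0103), Slfn8 by 1.15 ± 0.27 (0.0322) and Slfn9 by 1.08 ± 0.21 (0.0157). Slfn5 differed by -0.05 ± 0.09 (adjusted p 0.792) and Slfn3 by 0.35 ± 0.21 (0.330). After cGAMP 3 members were called higher in implanted tumours, against 5.23% of all genes: Slfn2 by 0.72 ± 0.15 (adjusted p 0.0164), Slfn4 by 1.85 ± 0.29 (0.00520) and Slfn9 by 1.03 ± 0.21 (0.0137). These comparisons use the same libraries as the responses. The counts fell to 1 after PBS without implanted PBS replicate 1 and to 2 without either spontaneous PBS library, and after cGAMP to 1 and 0 without spontaneous cGAMP replicates 1 and 2. Of these calls Slfn2 after PBS was kept in every setting, with an adjusted p of at most 0.0103.

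The wider interferon programme was followed in lists chosen with earlier results of these data known. Of 10 effector genes 9 were tested and 9 rose in both models, against 5.09% and 8.60% of all genes called higher, with a median log2 difference of 4.73 in spontaneous and 3.68 in implanted tumours. Isg15, a ubiquitin-like modifier, rose by 4.32 ± 0.18 (limma adjusted p 5.79e-07) and 3.20 ± 0.18 (7.12e-06). Of 15 genes of the sensing and signalling pathway 7 rose and 0 fell in spontaneous tumours (median 0.34), and 9 rose and 1 fell in implanted tumours (median 0.55). Irf7, a factor that amplifies interferon production, rose by 5.85 ± 0.19 (adjusted p 2.38e-07) and 4.12 ± 0.19 (3.10e-06). The receptor gene Ifnar1 was the one that fell in implanted tumours, where 16.4% of all genes were called lower, by 0.53 on the log2 scale (limma adjusted p 0.0169).

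The difference between the models after PBS was present in these lists too. In implanted PBS all 9 effector genes tested and 7 of 15 pathway genes were called higher than in spontaneous PBS, against 3.39% of all genes, with medians of 1.73 and 0.36. Irf7 differed by 1.72 ± 0.19 (limma adjusted p 0.000889).

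Genes next to the family were not called after cGAMP. Within 250 kb on either side 41 genes are annotated, 17 had a row and 9 passed the filter. Of these 0 were called in either response by limma, against 12.7% and 25.0% of all genes in the spontaneous and implanted response. An unadjusted p under 0.05 was found for 0 of them, against 3050 and 3896 of all 10424 genes. The median log2 difference of the 9 genes was 0.18 in spontaneous and 0.04 in implanted tumours, and their lowest limma adjusted p was 0.310.

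For each member with a mean of at least 10 CPM, the 3 genes with the most similar profile over the 8 libraries were found by the root mean square (RMS) difference of centred log2 levels. For Slfn2 these were H2-Q7, a class I histocompatibility gene, at an RMS of 0.186, Oas1a at 0.261 and Olfr56 at 0.261. Slfn8 was most like Ifi44 (0.163), Cmpk2 (0.182) and Oasl2 (0.184), and Slfn4 most like Ifi208 (0.318), Ms4a4d (0.356) and Phf11a (0.393). Slfn3 was nearest to Trim21 (0.108), Parp11 (0.112) and Samd9l (0.117). The nearest to Slfn5 were Ankfy1 (0.0630) and Lamp2 (0.0779). For Slfn9 the nearest were the cytokine gene Il6 (0.142), Olfm1 (0.150) and Ch25h (0.198).

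Cells were then grouped into vessel types by clusters built without 539 genes, namely the Schlafen genes and every gene whose level after cGAMP was 2-fold or more that after PBS in one or both models. Clusters were named from marker lists as arterial-like, tip-like (the sprouting front), stalk-like (postcapillary venous), AQP7+ (capillary), lymphatic-like and proliferative-like. The arterial-like type pooled 2 clusters of 935 and 574 cells, and the stalk-like type 2 of 937 and 207 cells. In implanted PBS the smaller stalk-like cluster held 51 and 79 cells and the larger 140 and 127. In implanted cGAMP they held 16 and 6, and 216 and 53. How far this makeup entered the responses within types was not tested. The largest cluster, of 1233 cells with a median of 1562 UMIs, was led by Spp1, Wfdc18 and Csn3, the latter 2 of which are on the epithelial tumour marker list, and stayed unnamed, and 540 of its cells came from implanted cGAMP replicate 1. Levels between types are a description without a test.

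**Figure D4:**
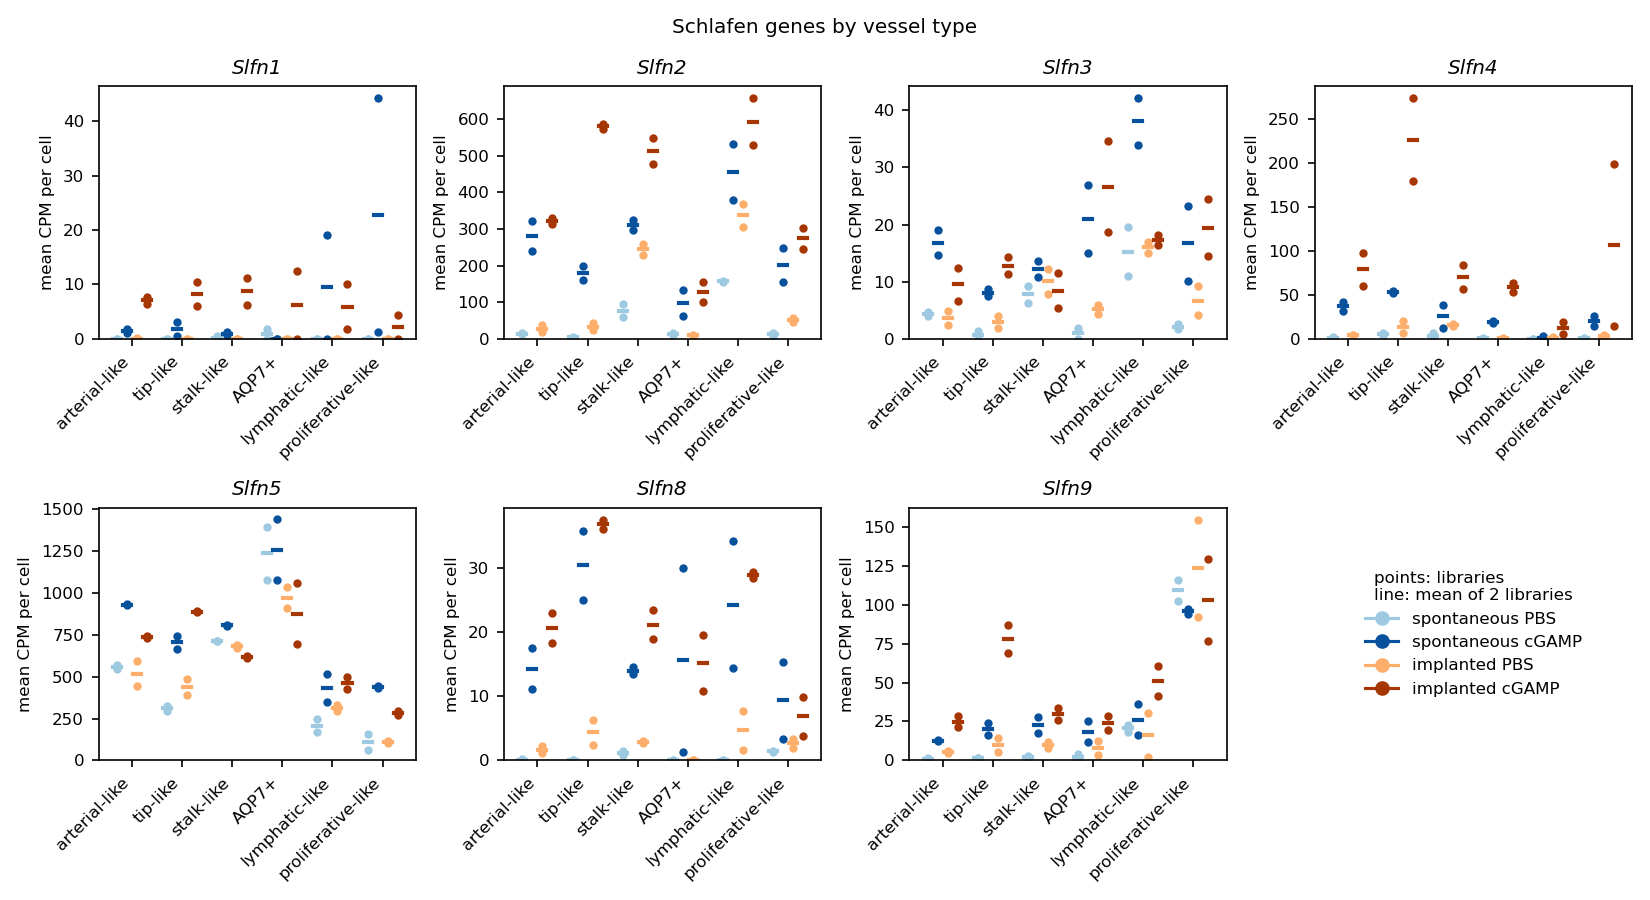
Mean CPM per cell (y axis, linear, starting at 0) of each Schlafen gene in 6 vessel types (x axis), with points for libraries and lines for the mean of 2 libraries in each group. Slfn9 is highest in proliferative-like cells in all 4 groups, 95.7 to 123 CPM on average, and Slfn5 is highest in AQP7+ cells after PBS, 971 to 1235 CPM.

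After PBS, Slfn9 was concentrated in the proliferative-like cells, although it had no part in the clustering. In spontaneous PBS these made up 6.58% of cells and held 82.2% of its UMIs, and in implanted PBS 10.4% of the cells held 64.0% of them. After cGAMP they made up 1.91% of cells and held 13.9% of its UMIs in spontaneous tumours, and 2.39% and 7.11% in implanted tumours, and tip-like cells then held 17.4% and 33.5% in the respective models. The mean of Slfn9 in proliferative-like cells was 109 CPM after PBS and 95.7 CPM after cGAMP in spontaneous tumours, and 123 and 103 CPM in implanted tumours. In arterial-like, tip-like, stalk-like and AQP7+ cells it was 0.996 to 2.32 CPM in spontaneous PBS and 5.40 to 9.91 CPM in implanted PBS. In lymphatic-like cells it was 20.8 CPM in spontaneous PBS (12 UMIs) and 16.2 CPM in implanted PBS (38 UMIs). Slfn8, its closest relative, stood at 1.44 to 9.37 CPM in proliferative-like cells over the 4 groups.

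The proliferative-like cells were themselves fewer after cGAMP. Their share of cells went from 7.25% and 5.49% to 1.79% and 2.02% in spontaneous tumours and from 9.10% and 11.6% to 2.16% and 2.98% in implanted tumours, a difference that was not tested. Without them Slfn9 stood at 1.92 and 3.65 CPM in spontaneous PBS and 17.7 CPM in both spontaneous cGAMP libraries, and at 13.7 and 7.06 CPM in implanted PBS and 46.2 and 31.7 CPM in implanted cGAMP. The log2 difference was then 2.34 (limma adjusted p 0.00130) in spontaneous and 1.85 (adjusted p 0.00309) in implanted tumours, against 0.94 and 0.90 over all cells.

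Slfn5 after PBS was lowest in proliferative-like cells (109 CPM in the spontaneous and 108 CPM in the implanted model) and highest in AQP7+ cells (1235 and 971 CPM). Slfn2 after PBS was highest in lymphatic-like cells, 158 CPM in the spontaneous and 337 CPM in the implanted model, and next among the named types in stalk-like cells, where its libraries stood at 94.8 and 59.3 CPM and at 258 and 230.04 CPM. In tip-like cells it stood at 4.28 and 33.8 CPM. Slfn4 after cGAMP was highest in an unnamed cluster led by Gm26917 and Ptn in implanted tumours, 342 and 402 CPM, followed by tip-like cells with 179 and 274 CPM, and stood at 12.6 CPM on average in lymphatic-like cells of the same group.

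The response was tested in the 4 types with at least 20 cells in every library. Tip-like cells (75 to 121 per library) had 6 members called higher in spontaneous and 7 in implanted tumours, against 3.93% and 7.11% of all genes called higher there. Arterial-like cells (131 to 286) had 6 and 6, against 3.30% and 4.40%. Stalk-like cells (59 to 232) had 4 and 5, against 3.25% and 4.30%, and AQP7+ cells (29 to 50) had 1 and 2 of 6 tested, against 1.08% and 0.782%. No member was called lower in these responses by limma. Several of these calls started near the floor after PBS. In tip-like cells Slfn1 had 0 UMIs in both PBS groups, and in spontaneous PBS Slfn8 had 0 and Slfn3 had 3. In arterial-like cells of spontaneous PBS Slfn8 had 1 UMI. Slfn1 was called only in implanted tumours, where each of these types held 0 or 1 of its UMIs after PBS. The types were not refitted without Ptprc-positive cells. Slfn9 was called in both models in arterial-like, tip-like and stalk-like cells, by log2 differences of 1.52 or more.

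Slfn2 was called in all 4 types and both models, and its estimates lay far apart in tip-like and stalk-like cells. In tip-like cells it went from 4.80 and 3.76 CPM to 199 and 162 CPM in spontaneous tumours and from 42.1 and 25.6 CPM to 574 and 588 CPM in implanted tumours. In stalk-like cells, from the PBS levels above, it went to 324 and 298 CPM in spontaneous and to 548 and 477 CPM in implanted tumours. The log2 responses were 5.10 ± 0.22 and 4.10 ± 0.22 in tip-like cells and 2.03 ± 0.18 and 1.06 ± 0.18 in stalk-like cells (spontaneous first, largest limma adjusted p 0.00172).

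**Figure D5:**
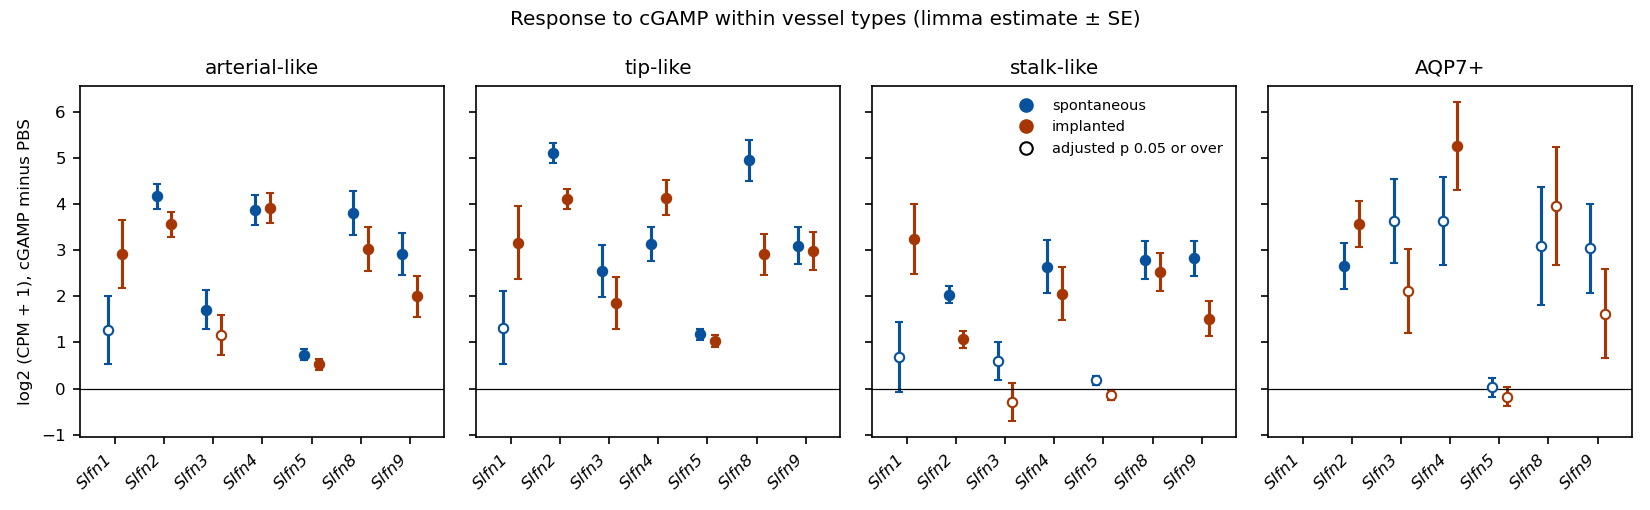
Difference of log2(CPM + 1) between cGAMP and PBS (y axis) of each Schlafen gene within 4 vessel types, with bars for the standard error and open points where the limma adjusted p was 0.05 or over. Slfn2 lies at 5.10 and 4.10 in tip-like cells and at 2.03 and 1.06 in stalk-like cells, and Slfn1 was not tested in AQP7+ cells.

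A test of the difference between types, added after the responses within types had been seen, used the per-library difference of log2 levels. In implanted tumours the Slfn2 response was larger in tip-like than in stalk-like cells by 3.04 ± 0.29 (limma adjusted p 0.0402, 0.0841% of genes called), and in spontaneous tumours by 3.07 ± 0.29 (adjusted p 0.101, 0% called). The implanted call was lost without any 1 of the 8 libraries (adjusted p 0.0900 to 0.304), while the difference stayed between 2.77 and 3.30. No other member was called between tip-like, stalk-like and arterial-like cells, where 0.00930% of genes were called for stalk-like against arterial-like cells in implanted tumours and 0% in the other pairs. Slfn5, called in tip-like cells by 1.18 ± 0.12 and 1.03 ± 0.12, was at 0.18 ± 0.10 (adjusted p 0.387) and -0.14 ± 0.10 (0.441) in stalk-like cells, and its difference between them had an adjusted p of 0.339 in spontaneous and 0.120 in implanted tumours.

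A higher level of the implanted model after PBS was also called within tip-like and stalk-like cells, but not within arterial-like or AQP7+ cells. In tip-like cells Slfn2 was called higher by 2.69 ± 0.22 (limma adjusted p 1.83e-06), with Slfn5, Slfn8 and Slfn9 also called higher, against 3.35% of all genes called. In stalk-like cells Slfn2 was called by 1.69 ± 0.18 (adjusted p 4.42e-05) beside Slfn4 and Slfn9, against 5.82%. In arterial-like cells 0 of 7 members were called by limma, against 2.32%, although some estimates were as large as called ones. Slfn9 stood at 1.81 ± 0.45 (adjusted p 0.0537, unadjusted p 0.00135), against 1.71 ± 0.37 in stalk-like cells. Slfn2 stood at 0.82 ± 0.27 (adjusted p 0.164, unadjusted p 0.00861). Slfn4 stood at 1.002 ± 0.32 (0.154, 0.00760) and Slfn8 at 1.30 ± 0.48 (0.248, 0.0181). Slfn1, Slfn3 and Slfn5 stood at 0.0907, -0.25 and -0.12. In AQP7+ cells 0 of 6 members were called by limma, against 0.386%, and Slfn2 stood at -0.45 ± 0.50 (adjusted p 0.835). The difference between types in this comparison was not tested.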

How the data were processed

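The members, marker lists and interferon lists were chosen with earlier results of these data known. According to the methods and the submitters' processing notes, the authors aligned reads with Cell Ranger 3.0.0 and used Seurat 3.1.1, removing cells under 500 genes or over 10% mitochondrial transcripts and genes in fewer than 3 cells. The authors deposited natural log values per cell, scaled to 10000. Taken back to the linear scale, 100% of values were whole UMIs within 0.01. Any 2 libraries shared at most 3 barcodes, and no doublet caller was run.

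CPM per cell were averaged per library over Pecam1 > 0 cells, and log2(CPM + 1) was fitted with limma 3.58.1 (R 4.3.3; 4 group means, trend) for genes that reached 5 CPM in 2 or more libraries. Fold changes on this scale understate those of low genes. The fit was also run on simulated counts, which were drawn per library and not per cell, so the averaging over cells was not tested. P-values rest on 1 estimate of the spread per gene, pooled over the 4 groups of 2 libraries and moderated over all genes. The SE of a gene is therefore the same in both models. Clustering used Seurat 5.3.0 (2500 variable features, 30 components, resolution 0.5). A cluster without its markers among its 10 leading genes was named only with 3 in 4 of its list found, a condition chosen after the data were seen, as were the test between types and the setting without the shallow unnamed cluster. The text names all members and other Slfn rows, genes within 250 kb, the interferon lists and the nearest 3 profiles, and some of these genes are not reported here. Ratio intervals are exact. Promoters came from RefSeq on GRCm38.p6 and gene positions from the GRCm38 annotation. Depth per library is given above.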

Additional observations from a re-analysis of the deposited data

Results flagged for a closer look

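The Slfn2 response to cGAMP in implanted tumours differed between vessel types: it was larger in tip-like than in stalk-like cells by 3.04 on the log2 scale (limma adjusted p 0.0402), and the call was lost without any 1 library.

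Schlafen transcripts were also present above the PBS level in the cells with no Pecam1 UMI, which entered only the alternative fit over all deposited cells. Their summed level was 660 and 693 CPM in spontaneous cGAMP (mean 676 CPM) against 327 and 213 CPM in spontaneous PBS, over 71 to 88 cells per library. In implanted tumours it was 1349 and 1206 CPM after cGAMP (mean 1278 CPM) against 388 and 324 CPM after PBS, over 50 to 496 cells. These cells were shallow, with medians of 1514 and 2383 UMIs in spontaneous PBS and 2204 and 2059 in spontaneous cGAMP. Slfn2 had 3 and 4 UMIs there in spontaneous PBS and 33 and 27 in spontaneous cGAMP. Whether these cells were ECs whose Pecam1 was missed was not tested.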

How the results depend on the processing

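The count of members called stayed within 5 to 7 in both responses under every alternative, and without single libraries it was 5 to 6 in spontaneous and 5 to 7 in implanted tumours. For the difference of the responses it was 0, but 1 (Slfn2) without the clusters named mural or epithelial, and 0 to 1 without single libraries. For implanted against spontaneous after PBS it was 4, but 2 with a pseudocount of 10 CPM, 1 with no filter on low values, and 1 to 4 without single libraries. After cGAMP it was 3, but 1 with no filter and 0 to 3 without single libraries. Calls within vessel types numbered 37 and ranged from 28 to 37 without single libraries. Cells thinned to 1000 UMIs left both cGAMP libraries above both PBS libraries for all 14 pairs of member and model, as at 2000. The share of all genes with this separation is not given.

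With the replicate number as a block, the counts were 6 (without Slfn1) and 7 in the responses, 1 (Slfn2) for their difference, 4 after PBS and 3 after cGAMP. The numbers were not shown to pair the libraries, since deviations of same-numbered libraries correlated at -0.216 in spontaneous and 0.125 in implanted tumours.

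Directions reversed for differences that were never called. For the difference of the responses these were Slfn3 (0.0413 in all deposited cells), Slfn4 (-0.12 with a pseudocount of 0.1 CPM), Slfn8 and Slfn9 (0.0366 and 0.10 with 10 CPM) and Slfn9 (0.29 with summed UMIs, 0.0207 in cells of at least 2000 UMIs). After PBS it was Slfn5 (0.0355 with median-of-ratios scaling, 0.0234 with summed UMIs), and after cGAMP Slfn3 (-0.0813 with summed UMIs and -0.0832 in cells of at least 2000 UMIs). Without single libraries the difference of the responses ran from -0.39 to 0.0518 for Slfn3, -0.20 to 0.64 for Slfn4, -0.16 to 0.0410 for Slfn5 and -0.35 to 0.27 for Slfn9. The PBS comparison ran from -0.18 to 0.0202 for Slfn1 and -0.15 to 0.0498 for Slfn5, and the cGAMP comparison from -0.0369 to 0.41 for Slfn3. The cause was not tested.

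The number of genes called over the whole table varied more. It was 1322 in the spontaneous response (2839 with summed UMIs, 812 with no filter, 448 to 1808 without single libraries) and 2609 in the implanted response (1265 to 2495 without single libraries). For the difference of the responses it was 69 (112 with summed UMIs, 43 in all deposited cells, 0 with no filter, 2 to 171 without single libraries). For the models it was 816 after PBS (1317 with summed UMIs, 327 with no filter, 212 to 1234 without single libraries) and 1434 after cGAMP (784 with no filter, 156 to 1447 without single libraries). The shares of all genes called move with these. Slfn1 had 0 to 2 UMIs in each PBS library.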
